A study of Mus musculus with 12 samples.

Results

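Fatty acid and glycerolipid synthesis was followed through 32 named genes, out of 19477 genes with a value at either age, in RNA from the peeled back epidermis of mice. The 32 genes were chosen by name, through their Entrez numbers, and all of them were found in the tables of both ages. The libraries labelled DKO (called DKO-labelled libraries from here on) came from C57BL/6-background mice with floxed alleles of the vitamin D receptor gene Vdr and of Med1, which encodes a Mediator subunit, together with a Cre transgene under the keratin 14 (K14) promoter (VDR fl/fl and Med1 fl/fl with K14 Cre+/-). Control libraries came from mice with the same floxed alleles and without the Cre transgene (VDR fl/fl and Med1 fl/fl with K14 Cre-/-). The ages were postnatal day 36 (P36) and 6 months, with 3 DKO-labelled and 3 control libraries at each. The K14 promoter drives Cre in basal keratinocytes and therefore also in the cells that descend from them, hair follicle and sebaceous gland cells among them, and not in fat, muscle or dermal cells.

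Fatty acids are built in the cytosol from acetyl-CoA. Citrate leaves the mitochondrion and is split to acetyl-CoA, acetyl-CoA carboxylase turns this into malonyl-CoA, and fatty acid synthase joins the units into palmitate, which elongases and desaturases then modify. Acyl-CoA synthetases activate the fatty acids, and a chain of acyltransferases and phosphatases places them on glycerol 3-phosphate to make triacylglycerol and the precursors of phospholipids. In skin, this pathway feeds the sebum of the sebaceous gland and the barrier lipids of the upper epidermis, and it is also a main pathway of the fat cells below the dermis.

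Levels are given as FPKM, a read count scaled by the length of the gene and the size of the library. Library sums of FPKM ran between 446617 and 554382, with 12056 to 12760 genes at 1 FPKM or more. The number of reads is unknown, so no counting error can be given. The 12 keratinocyte markers summed to 11746 to 14561 FPKM in DKO-labelled libraries at P36, 6691 to 9516 FPKM in control at P36, 11333 to 13718 FPKM in DKO-labelled libraries at 6 months and 13885 to 18706 FPKM in control at 6 months. Med1 at P36 had 10.3, 8.78 and 8.20 FPKM in DKO-labelled libraries, against 13.9, 14.2 and 13.2 FPKM in control libraries (limma adjusted p = 0.0083), and it did not pass the test at 6 months (adjusted p = 0.13). Vdr did not follow the label, with 87.3, 86.7 and 76.5 FPKM in DKO-labelled libraries, against 65.8, 65.5 and 72.8 FPKM in control libraries at P36 (adjusted p = 0.0573; at 6 months adjusted p = 0.302). A value per gene does not show which exons were read, so the labels are used as given. In bulk RNA, fewer cells of a type and less RNA per cell cannot be told apart.

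Genes of the pathway were higher in DKO-labelled libraries at P36 at nearly every step, and at 6 months part of them were higher, a few were lower and others were not told apart. A gene was called where limma's adjusted p for DKO against control was below 0.05, and 31 of the 32 genes passed the filter of at least 1 FPKM in at least 3 libraries at each age. At P36, 20 of the 31 (64.5%) were called higher and 1 was called lower, beside 18.0% of all tested genes called higher and 5.32% called lower. The median log2 fold change of the 31 was 0.74, against 0.092 over all tested genes. At 6 months, 12 of 31 (38.7%) were called higher and 4 (12.9%) lower, beside 23.2% of all tested genes called higher and 18.2% called lower, and the median was 0.29, against 0.045 over all tested genes. Olah is among the 12 and in this median. It passed the filter through DKO-labelled libraries alone, so its call was fixed in advance. Of all genes called, 77.1% were higher at P36 (58.9% with median-ratio scaling) and 56.0% at 6 months (36.7% with library totals taken without keratin and cornified envelope genes, a scaling that lowers the median of all genes to -0.119). The 32 genes kept 18 higher and 1 lower call in the first case and had 11 and 5 in the second.

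Of the 20 genes called higher at P36, 10 were also called higher at 6 months (Acss2, Acacb, Elovl5, Elovl6, Elovl7, Acsl4, Acsl5, Gpd1, Gpam and Dgat1), 3 were called lower (Srebf1, Acsl1 and Dgat2), and 7 were not called (Slc25a1, Acly, Me1, Fasn, Thrsp, Agpat2 and Lpin1). Dbi was called higher at 6 months and not at P36, and Scd2 was called lower at 6 months and not at P36. Acaca, Fads1, Fads2, Gpat3, Agpat1, Agpat3 and Lpin2 were called at neither age. Olah did not pass the filter at P36 and Mlxipl did not pass it at 6 months. Summed over the 32 genes, levels were 1788 to 1918 FPKM in DKO-labelled libraries and 1190 to 1304 FPKM in control at P36, and 2343 to 2561 FPKM in DKO-labelled libraries and 1244 to 1548 FPKM in control at 6 months. Dbi was the highest of the 32 in every group except control at 6 months, where Dgat2 was, and without Dbi the sums were 1144 to 1282 FPKM against 637 to 717 FPKM at P36 and 1435 to 1656 FPKM against 1077 to 1344 FPKM at 6 months.

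**Figure D1:**
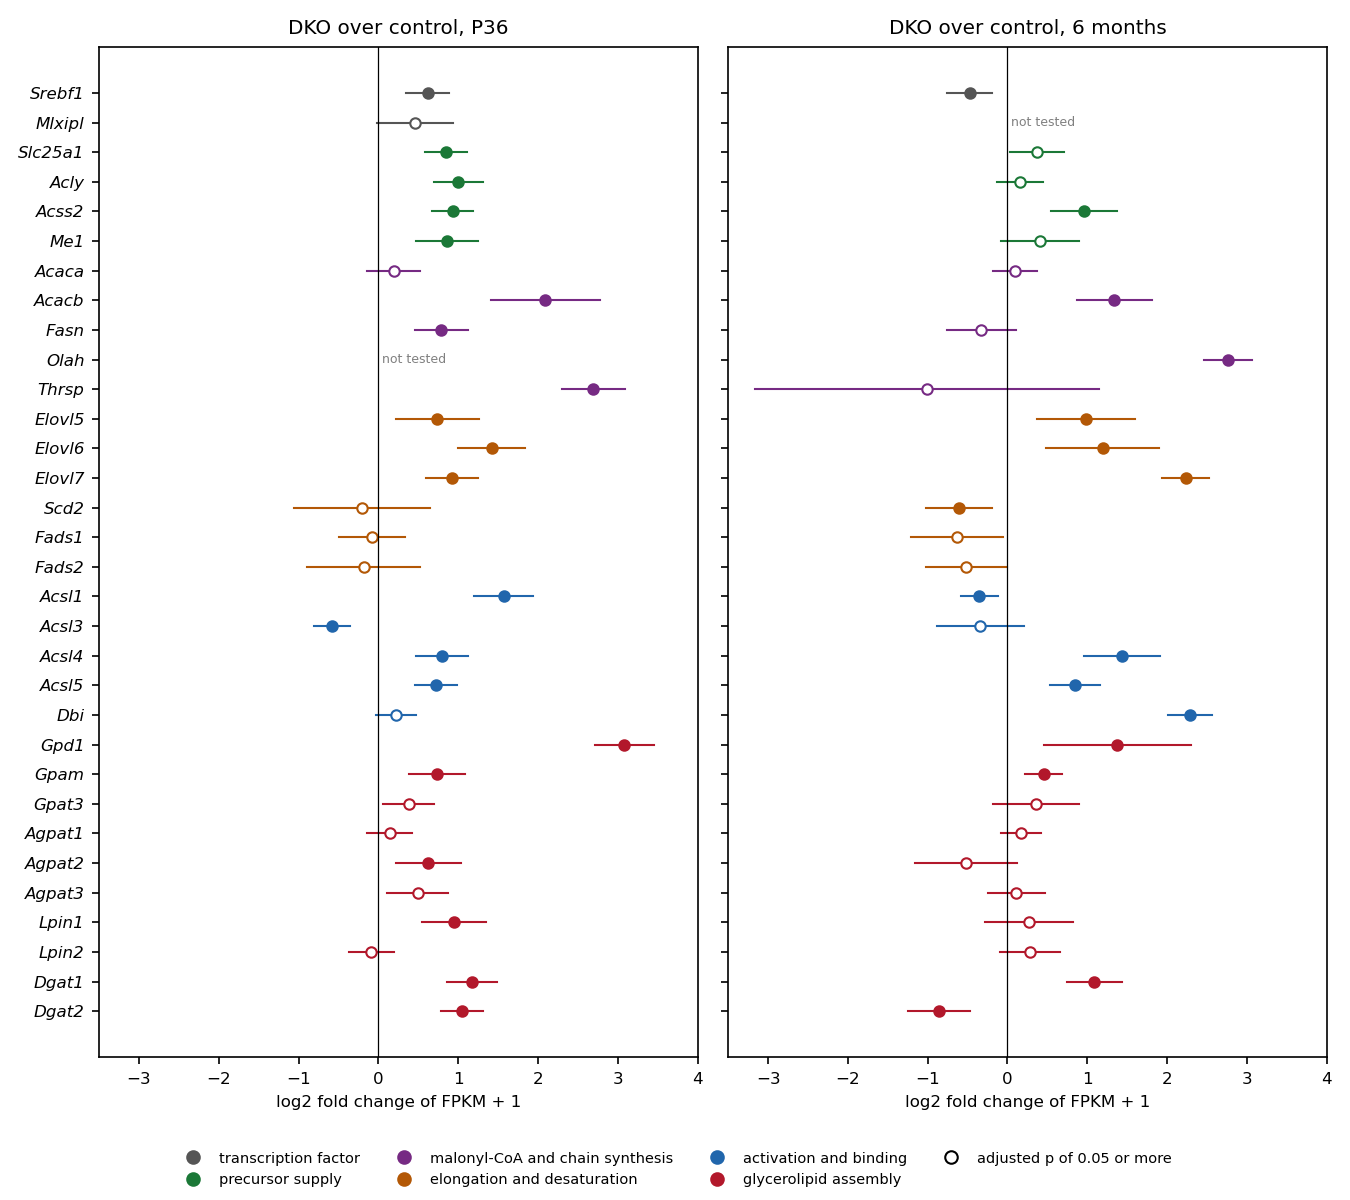
Log2 fold change of FPKM + 1, DKO over control, of each gene at P36 (left) and 6 months (right), with 95% confidence intervals from limma (3 libraries a group). Filled points passed an adjusted p of 0.05, and colours mark the step of the pathway. At P36, 20 genes lie right of 0 with filled points and Acsl3 alone is filled on the left, and at 6 months Srebf1, Scd2, Acsl1 and Dgat2 are filled on the left.

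The promoters of 4 of these genes are shown for their different responses: Fasn and Thrsp were called higher at P36 alone, Olah was near 0 in every control library, and Elovl7 was higher at both ages and more so at 6 months. RefSeq (build GRCm38.p6) gave 37 promoter windows for 27 of the 32 genes, each holding 250 bases before to 50 bases after a start site, and no window for Scd2, Fads1, Gpd1, Dgat1 and Dgat2. Both strands were searched for CCAAT, the box bound by NF-Y, which works beside SREBP at lipid promoters. The other motifs were the GC box GGGCGG, the E-box CACGTG, the sterol regulatory element in an exact form and in a form with any base at its sixth position, and direct repeats of AGGTCA, the core of nuclear receptor sites, with 3 or 4 bases between the copies. The lines below run 5′ to 3′ on the gene's strand, and capitals mark CCAAT or its reverse complement. The Fasn window lies at chr11:120824498-120824797 (minus strand), that of Thrsp at chr7:97417501-97417800 (minus strand), that of Elovl7 at chr13:108214154-108214453 (plus strand) and that of Olah at chr2:3366520-3366819 (minus strand).
Fasn: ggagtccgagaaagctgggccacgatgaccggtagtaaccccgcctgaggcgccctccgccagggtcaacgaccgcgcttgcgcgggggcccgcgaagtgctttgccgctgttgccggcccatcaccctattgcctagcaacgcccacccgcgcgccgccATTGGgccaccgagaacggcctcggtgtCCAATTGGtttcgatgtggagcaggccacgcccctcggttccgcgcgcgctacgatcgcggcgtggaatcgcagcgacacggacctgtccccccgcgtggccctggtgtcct
Thrsp: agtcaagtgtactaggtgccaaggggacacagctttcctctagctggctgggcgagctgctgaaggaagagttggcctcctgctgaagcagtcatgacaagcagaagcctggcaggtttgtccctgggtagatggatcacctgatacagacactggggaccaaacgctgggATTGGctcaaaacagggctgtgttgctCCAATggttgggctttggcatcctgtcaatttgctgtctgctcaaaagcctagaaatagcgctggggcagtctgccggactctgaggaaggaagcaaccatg
Elovl7: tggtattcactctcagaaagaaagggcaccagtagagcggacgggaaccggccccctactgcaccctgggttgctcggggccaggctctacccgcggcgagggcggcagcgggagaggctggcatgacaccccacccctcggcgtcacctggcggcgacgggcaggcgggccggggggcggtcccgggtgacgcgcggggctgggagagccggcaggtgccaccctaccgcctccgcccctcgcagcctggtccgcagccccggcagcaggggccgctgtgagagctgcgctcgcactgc
Olah: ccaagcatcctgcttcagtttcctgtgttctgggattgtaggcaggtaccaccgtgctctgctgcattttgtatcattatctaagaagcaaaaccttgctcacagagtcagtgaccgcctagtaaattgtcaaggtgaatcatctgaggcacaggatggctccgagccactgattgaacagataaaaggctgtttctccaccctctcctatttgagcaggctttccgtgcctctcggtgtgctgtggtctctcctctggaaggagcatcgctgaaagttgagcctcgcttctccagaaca

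The Fasn window held 3 CCAAT matches, starting at positions -90, -62 and -59 from the start site, and the matches at -62 and -59 stand on opposite strands and overlap. The Thrsp window held 2, at -79 and -52. The Elovl7 and Olah windows held no CCAAT match, and Elovl7 held 3 GC boxes. Over all windows of the 32 genes, 19 of 37 (51.4%) held CCAAT, against 37.4% of 32851 windows in the RefSeq table, and 51.4% held the GC box, against 35.7%. The E-box stood in 4 windows (10.8%, against 7.15%), those of Elovl5, Lpin2, Mlxipl and Slc25a1. The sterol regulatory element was in 0 of the 37 windows in either form, and in 0.0913% (exact) and 0.234% (any sixth base) of all windows. The direct repeats were in 0 of the 37 too, and in 0.00609% (3 bases apart) and 0.0152% (4 bases apart) of all. CCAAT did not sort the genes by response: windows of Acss2, Acacb, Elovl5, Acsl5 and Gpam, called higher at both ages, held it, and those of Agpat2 and Lpin1, called higher at P36 alone, did not. These are matches of letters in short windows and say nothing of binding. The submitters' notes name human builds for these mouse libraries, so the coordinates are those of RefSeq alone.

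At P36, the regulators of the pathway were followed first. Srebf1 encodes SREBP-1, the transcription factor that turns on the genes of fatty acid synthesis, and it had 38.7, 32.5 and 39.9 FPKM in DKO-labelled libraries, against 25.1, 25.3 and 20.9 FPKM in control libraries. The groups did not overlap, and Srebf1 rose (log2 fold change 0.62, SE 0.12, adjusted p = 0.00717). Mlxipl encodes ChREBP, a transcription factor that answers to glucose, and it was near the filter, with 2.26, 0.98 and 1.54 FPKM in DKO-labelled libraries, against 1.14, 0.83 and 0.61 FPKM in control libraries (adjusted p = 0.156). Its groups overlapped.

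The 4 genes of precursor supply all rose at P36, by 0.85 to 1.00 on the log2 scale. Slc25a1, the mitochondrial citrate carrier, had 73.2, 86.5 and 88.8 FPKM in DKO-labelled libraries, against 42.8, 51.1 and 43.0 FPKM in control libraries (log2 fold change 0.85, SE 0.11, adjusted p = 0.0018). Acly, the enzyme that splits the exported citrate into acetyl-CoA, had 84.5, 89.0 and 111 FPKM in DKO-labelled libraries, against 48.0, 51.5 and 40.8 FPKM in control libraries (log2 fold change 1.00, SE 0.13, adjusted p = 0.00176). Every DKO-labelled library was above every control library for both. Acss2, which makes acetyl-CoA from acetate, averaged 19.7 ± 2.20 FPKM in DKO-labelled libraries and 9.86 ± 0.77 FPKM in control libraries (SD, n = 3 each; log2 fold change 0.93, SE 0.11, adjusted p = 0.00128). Me1, the cytosolic malic enzyme that supplies NADPH, averaged 72.4 ± 12 FPKM in DKO-labelled libraries and 39.7 ± 7.87 FPKM in control libraries (log2 fold change 0.86, SE 0.17, adjusted p = 0.00867).

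Of the genes around chain synthesis, Acacb, Fasn and Thrsp rose at P36 and Acaca did not pass the test. The 2 acetyl-CoA carboxylases thus gave different values: Acaca, the cytosolic form that makes malonyl-CoA for synthesis, had 17.8, 13.8 and 18.2 FPKM in DKO-labelled libraries, against 14.8, 16.3 and 12.1 FPKM in control libraries (log2 fold change 0.19, 95% interval -0.14 to 0.52, adjusted p = 0.407). Acacb, the form at the mitochondrial surface whose malonyl-CoA restrains fatty acid oxidation, had 8.62, 14.4 and 16.7 FPKM in DKO-labelled libraries, against 2.52, 3.38 and 1.21 FPKM in control libraries. Acacb rose (log2 fold change 2.09, SE 0.30, adjusted p = 0.00225), with the lowest DKO-labelled library above the highest control library. Fasn, the synthase that builds palmitate, had 54.9, 52.4 and 68.4 FPKM in DKO-labelled libraries, against 32.9, 39.1 and 28.4 FPKM in control libraries, and it rose (log2 fold change 0.79, SE 0.14, adjusted p = 0.00646). Thrsp, or Spot 14, a small protein that promotes fatty acid synthesis in liver and fat, had 26.1, 19.1 and 26.8 FPKM in DKO-labelled libraries, against 2.58, 3.63 and 2.38 FPKM in control libraries. This was among the largest differences of the 32 genes (log2 fold change 2.69, SE 0.17, adjusted p = 0.000168). Olah, a thioesterase that releases medium chain fatty acids from the synthase, was below 1 FPKM in each library at P36, with 0.60, 0.48 and 0.33 FPKM in DKO-labelled libraries, against 0.04, 0 and 0.11 FPKM in control libraries, and was not tested there.

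The elongases of the list rose at P36 while its desaturases did not pass the test. Elovl6, which extends palmitate to stearate, had 94.8, 60.4 and 69.7 FPKM in DKO-labelled libraries, against 27.1, 31.8 and 22.5 FPKM in control libraries (log2 fold change 1.42, SE 0.18, adjusted p = 0.0016). Elovl7, an elongase of saturated long chains, had 37.2, 49.3 and 52.1 FPKM in DKO-labelled libraries, against 25.7, 21.2 and 24.1 FPKM in control libraries (log2 fold change 0.93, SE 0.14, adjusted p = 0.00306). Elovl5, an elongase of polyunsaturated chains, had 47.3, 80.3 and 70.4 FPKM in DKO-labelled libraries, against 46.1, 41.7 and 28.9 FPKM in control libraries (log2 fold change 0.74, SE 0.23, adjusted p = 0.049). The lowest DKO-labelled library lay just above the highest control library. Elovl5 lost its call in 12 of 14 alternative settings, among them those without DKO P36 replicate 2 (adjusted p = 0.161) or replicate 3 (0.148), and without control replicate 1 (0.0529), 2 (0.0814) or 3 (0.117). Scd2, a stearoyl-CoA desaturase of skin and brain, had 111, 32.8 and 59.1 FPKM in DKO-labelled libraries, against 71.5, 77.4 and 60.8 FPKM in control libraries. DKO-labelled libraries lay on both sides of the control range, and no difference was called (log2 fold change -0.21, 95% interval -1.06 to 0.65). Scd2 has close relatives in Scd1 and Scd3, and the sources used here do not give how short reads were shared among them, so its level is uncertain. Fads1 and Fads2, the desaturases of polyunsaturated fatty acid synthesis, were not called. Fads2 had 21.1, 8.84 and 8.14 FPKM in DKO-labelled libraries, against 12.5, 15.1 and 12.3 FPKM in control libraries (adjusted p = 0.733), and Fads1 averaged 14 ± 3.99 FPKM in DKO-labelled libraries and 14.6 ± 1.79 FPKM in control libraries (adjusted p = 0.805). Without DKO P36 replicate 1, the library with the highest Scd2, Fads1 and Fads2, Fads2 was called lower (log2 fold change -0.59, adjusted p = 0.0178).

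Among the genes that activate and bind fatty acids, the long chain acyl-CoA synthetases moved in opposite directions at P36. Acsl1, the main form of fat, liver and sebaceous gland, had 41.6, 40.1 and 51.0 FPKM in DKO-labelled libraries, against 18.1, 12.4 and 12.6 FPKM in control libraries (log2 fold change 1.57, SE 0.16, adjusted p = 0.000733). Acsl4, a form with a preference for arachidonate, and Acsl5 also rose: Acsl4 averaged 8.96 ± 1.00 FPKM in DKO-labelled libraries and 4.76 ± 0.89 FPKM in control libraries (log2 fold change 0.80, SE 0.14, adjusted p = 0.00611), and Acsl5 had 86.2, 101 and 114 FPKM in DKO-labelled libraries, against 63.4, 59.2 and 58.1 FPKM in control libraries (log2 fold change 0.72, SE 0.11, adjusted p = 0.00368). Acsl3, a form that sits on nascent lipid droplets, was the one gene of the list that fell, with 19.6, 18.3 and 19.3 FPKM in DKO-labelled libraries, against 28.2, 26.8 and 32.5 FPKM in control libraries (log2 fold change -0.58, SE 0.10, adjusted p = 0.00464). All 3 DKO-labelled libraries were below the control range. Dbi, the acyl-CoA binding protein, had 613, 711 and 636 FPKM in DKO-labelled libraries, against 540.1, 587 and 553 FPKM in control libraries, groups that did not overlap, but a difference that was not called (log2 fold change 0.22, adjusted p = 0.195).

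Of the 10 genes of glycerolipid assembly, 6 rose at P36 and 0 fell at an adjusted or an unadjusted p below 0.05 (the other four, Gpat3, Agpat1, Agpat3 and Lpin2, had log2 fold changes from -0.09 to 0.49 and were not called). Gpd1, which makes glycerol 3-phosphate from a glycolytic intermediate, had the largest fold change of the 32 genes, with 47.1, 41.8 and 47.2 FPKM in DKO-labelled libraries, against 5.32, 5.10 and 3.24 FPKM in control libraries (log2 fold change 3.08, SE 0.16, adjusted p = 0.000131). Gpam, the mitochondrial acyltransferase of the first step, averaged 12 ± 2.01 FPKM in DKO-labelled libraries and 6.79 ± 1.14 FPKM in control libraries (log2 fold change 0.73, SE 0.15, adjusted p = 0.0115). Lpin1, a phosphatidate phosphatase, had 3.35, 5.82 and 3.84 FPKM in DKO-labelled libraries, against 1.71, 1.79 and 1.65 FPKM in control libraries (log2 fold change 0.95, SE 0.17, adjusted p = 0.00664). The final step, from diacylglycerol to triacylglycerol, has 2 unrelated enzymes and both rose. Dgat1 had 28.0, 37.5 and 31.5 FPKM in DKO-labelled libraries, against 15.6, 13.7 and 12 FPKM in control libraries (log2 fold change 1.17, SE 0.13, adjusted p = 0.00116), and Dgat2 had 105, 109 and 122 FPKM in DKO-labelled libraries, against 59.4, 56.1 and 46.4 FPKM in control libraries (log2 fold change 1.04, SE 0.11, adjusted p = 0.000917). Agpat2, the acyltransferase of the second step that is needed for fat tissue, had 28.0, 17.5 and 20.0 FPKM in DKO-labelled libraries, against 15.3, 13.8 and 11.7 FPKM in control libraries (log2 fold change 0.62, SE 0.18, adjusted p = 0.0367). Its call was lost in 9 of 14 alternative settings, among them the joint fit of all 12 libraries (adjusted p = 0.105) and that with no filter on low values (0.0622). The 9 include the settings without DKO P36 replicate 1 (adjusted p = 0.0649) or replicate 3 (0.0783) and without control replicate 1 (0.0529), 2 (0.0812) or 3 (0.0973). Over the whole list at P36, 22 of the 31 tested genes had every DKO-labelled library above every control library and 1 had every one below, beside 30.0% and 9.63% of all tested genes.

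**Figure D2:**
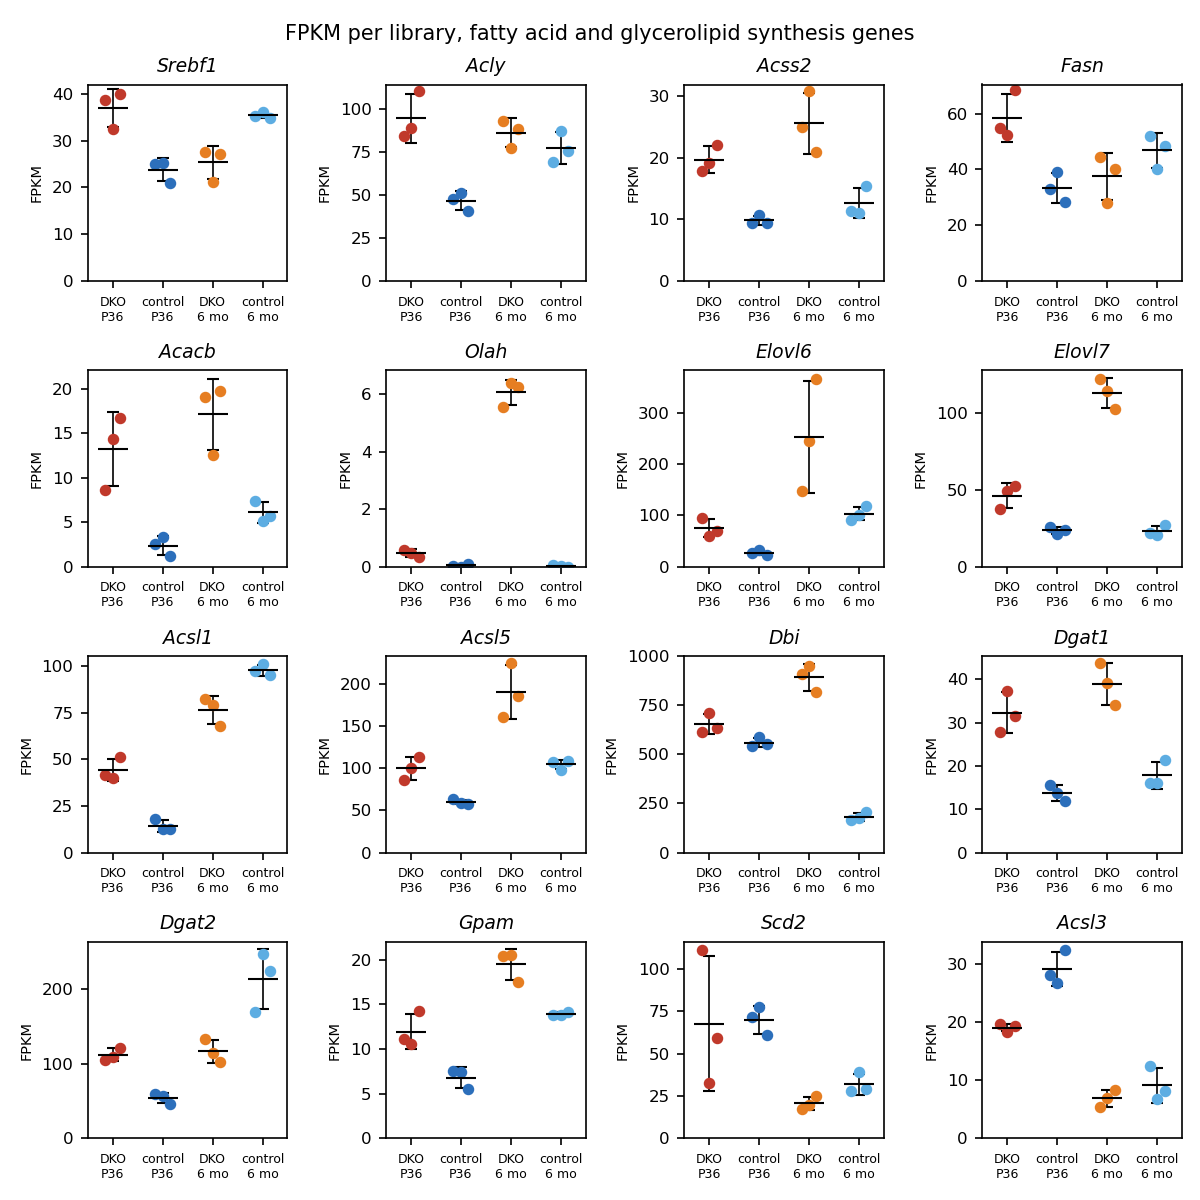
FPKM of 16 of the genes in each library, with the group mean (horizontal line) and SD (bars), 3 libraries a group, DKO left of control at each age. Olah stands above 5 FPKM in the 3 DKO-labelled libraries at 6 months and near 0 in control, and Dgat2 and Acsl1 change sides between the ages.

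Markers of fat cells stood higher in the same P36 libraries. Of 15 fat cell markers, 13 were tested at P36, and 9 of these were called higher, beside 18.0% of all tested genes. In 10 of the 15 the groups did not overlap, with DKO-labelled libraries above, as in 30.0% of all tested genes. Adiponectin (Adipoq), a hormone of fat cells, had 41.7, 27.2 and 25.0 FPKM in DKO-labelled libraries, against 5.71, 2.89 and 4.01 FPKM in control libraries (log2 fold change 2.63, SE 0.24, adjusted p = 0.00051). Adipsin (Cfd) had 316, 244 and 278 FPKM in DKO-labelled libraries, against 24.9, 8.70 and 37.5 FPKM in control libraries, and the droplet protein Cidec had 33.5, 27.6 and 23.8 FPKM in DKO-labelled libraries, against 5.19, 2.60 and 6.49 FPKM in control libraries. Fabp4, the highest gene of the list, was not called, with 778, 793 and 606 FPKM in DKO-labelled libraries, against 740.3, 699.7 and 1077 FPKM in control libraries. The summed level of the other 14 markers was 540 to 786 FPKM in DKO-labelled libraries and 87.8 to 120 FPKM in control, and with Fabp4 it was 1169 to 1564 FPKM and 788 to 1197 FPKM. No marker was at 0 in every library, and Ucp1, the marker of brown fat cells, stayed below 0.1 FPKM in each. The synthesis pathway is a main pathway of fat cells as well, and these values do not sort the 20 genes called higher at P36 by cell type. The part of fat cell RNA in the rise of the synthesis genes at P36 was not tested.

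Other cell types moved with the genotype at P36 as well. Of 13 tested skeletal muscle markers 12 were called higher, with sums of 155 to 659 FPKM in DKO-labelled libraries and 16.9 to 34.4 FPKM in control. Of 15 dermal fibroblast markers 10 were called higher (1795 to 2299 FPKM against 931 to 1679 FPKM), and of 10 macrophage markers all 10 were (290 to 446 FPKM against 59.3 to 80.5 FPKM). Of 17 tested sebocyte markers 10 were called higher and 2 lower (1009 to 1359 FPKM against 573 to 780 FPKM), and of 12 keratinocyte markers 5 were called higher. Beside these counts, 18.0% of all tested genes were called higher at P36 and 5.32% lower. The part of the muscle, fibroblast, macrophage, sebocyte and keratinocyte types in the values of the synthesis genes was not tested. The first DKO-labelled library at P36 had the highest muscle sum (659 FPKM, with 377 and 155 FPKM in the other two). Without it 20 synthesis genes were called higher and 2 lower: 20 of these 22 calls were among those of the full set, Agpat2 was not, and Agpat3 (higher) and Fads2 (lower) were added.

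**Figure D3:**
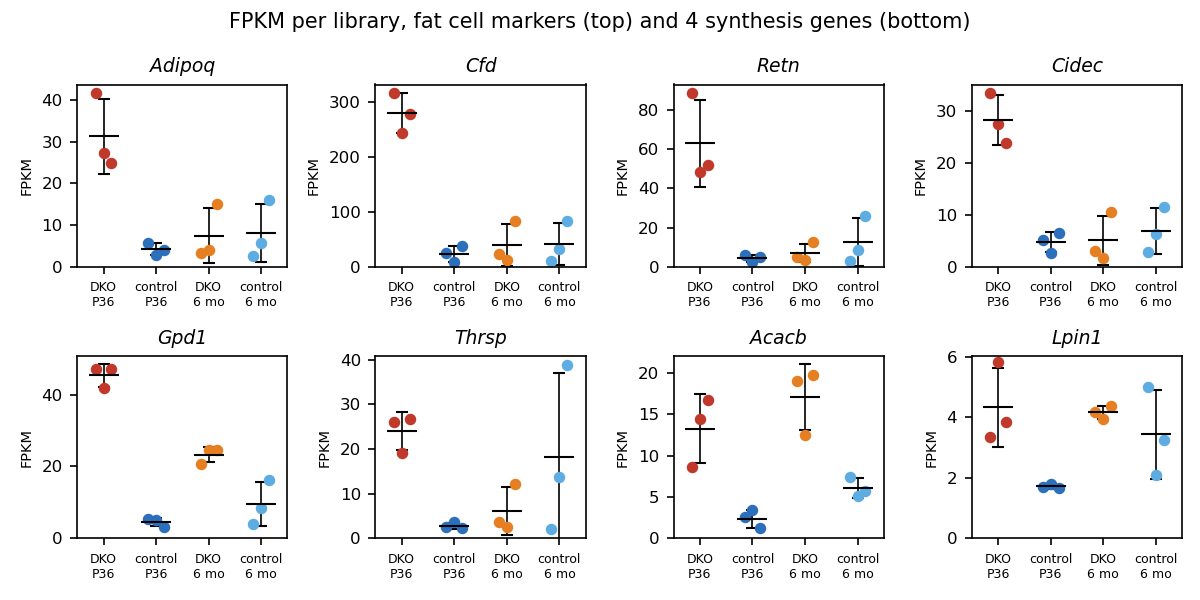
FPKM per library of 4 fat cell markers (top row) and 4 synthesis genes (bottom row), with group mean (line) and SD (bars), 3 libraries a group, DKO left of control at each age. The markers are high in the 3 DKO-labelled libraries at P36 and are spread alike in both groups at 6 months. Every DKO-labelled library is above every control library for Gpd1 and Acacb at 6 months. The part of fat cells in these genes was not tested.

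At 6 months, the fat cell markers no longer separated the groups: 0 of 13 tested were called higher by limma (1 at an unadjusted p below 0.05) and Lgals12 and Adrb3 were called lower. Without Fabp4 their sums were 115, 89.0 and 289 FPKM in DKO-labelled libraries and 76.0, 142 and 336 FPKM in control. Adipoq had 3.33, 4.05 and 15 FPKM in DKO-labelled libraries, against 2.53, 5.78 and 16.0 FPKM in control libraries. The third library of each group was highest. Of 8 tested muscle markers 0 passed limma in either direction, also at an unadjusted p below 0.05, with sums of 11.8 to 169 FPKM in DKO-labelled and 12.4 to 76.2 FPKM in control libraries. Without the third library of each group, a setting chosen after seeing the data, 12 synthesis genes were called higher and 4 lower, and 13 of the 16 calls of the full set were among them.

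Regulation and chain synthesis split at 6 months. Srebf1 was lower, with 27.6, 21.2 and 27.2 FPKM in DKO-labelled libraries, against 35.3, 36.0 and 34.9 FPKM in control libraries (log2 fold change -0.47, SE 0.12, adjusted p = 0.0175), and no DKO-labelled library reached the control range. The call was lost without control 6-month replicate 2 (adjusted p = 0.0573) or replicate 3 (0.050006), and without the third library of each group (0.0617). Acacb had 19.0, 12.5 and 19.7 FPKM in DKO-labelled libraries, against 7.43, 5.14 and 5.73 FPKM in control libraries (log2 fold change 1.34, SE 0.20, adjusted p = 0.00243). Acaca (0.09) and Fasn (-0.33) had log2 fold changes that were not called, and Fasn overlapped between groups, with 44.5, 28.1 and 40.0 FPKM in DKO-labelled libraries, against 52.1, 40.0 and 48.3 FPKM in control libraries (95% interval -0.76 to 0.10). Thrsp varied most, with 3.72, 2.49 and 12.2 FPKM in DKO-labelled libraries, against 2.05, 13.7 and 38.9 FPKM in control libraries (SE 0.92 on the log2 scale).

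Olah had the largest fold change of the 32 genes at 6 months, with 5.57, 6.39 and 6.25 FPKM in DKO-labelled libraries, against 0.08, 0.04 and 0 FPKM in control libraries (log2 fold change 2.76). It passed the filter through DKO-labelled libraries alone, so that a tested Olah had to differ, and its value stands as a description. In mammary gland, the thioesterase it encodes shortens the chains that the synthase makes. Of precursor supply, Acss2 stayed higher, with 25.0, 30.8 and 21.0 FPKM in DKO-labelled libraries, against 11.4, 11.1 and 15.5 FPKM in control libraries (log2 fold change 0.96, SE 0.18, adjusted p = 0.0054). Slc25a1 (log2 fold change 0.37, adjusted p = 0.0747), Acly (0.16, 0.329) and Me1 (0.41, 0.154) were not called. Their groups overlapped. Mlxipl averaged 0.71 ± 0.28 FPKM in DKO-labelled libraries and 0.96 ± 0.29 FPKM in control libraries and was not tested.

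The elongases of the list were higher at 6 months and Scd2 was lower. Outside the list, Elovl1 averaged 248 ± 26.6 FPKM in DKO-labelled libraries and 434 ± 93.7 FPKM in control libraries. Every DKO-labelled library was below every control library for Elovl1. Elovl3 (97.2 against 11.9 FPKM) and Elovl4 (844 against 362 FPKM) went the other way. Elovl7 had 122, 114 and 103 FPKM in DKO-labelled libraries, against 21.9, 20.9 and 27.0 FPKM in control libraries (log2 fold change 2.23, SE 0.12, adjusted p = 0.000112), so that the lowest DKO-labelled library was far above the highest control library. Elovl6 had 147, 245 and 366 FPKM in DKO-labelled libraries, against 92.1, 100.1 and 117 FPKM in control libraries (log2 fold change 1.19, SE 0.30, adjusted p = 0.0179), with a wide spread among DKO-labelled libraries. Its call was lost without DKO replicate 2 (adjusted p = 0.0648) or control replicate 1 (0.0531). Elovl5 had 130.2, 150.5 and 136 FPKM in DKO-labelled libraries, against 65.0, 48.5 and 107 FPKM in control libraries (log2 fold change 0.99, SE 0.26, adjusted p = 0.0209). It was not called without DKO replicate 1 (adjusted p = 0.0507) or 2 (0.0766) or control replicate 1 (0.0576). Scd2 had 17.2, 19.6 and 25.1 FPKM in DKO-labelled libraries, against 28.0, 38.9 and 28.8 FPKM in control libraries (log2 fold change -0.60, SE 0.18, adjusted p = 0.0299). That call was lost without DKO replicate 1 (0.0939) or 2 (0.0922) and without control replicate 2 (0.0861) or 3 (0.0517), given as adjusted p. It was also lost in the joint fit of all 12 libraries (adjusted p = 0.155). Fads1 (log2 fold change -0.63, adjusted p = 0.0757) and Fads2 (-0.51, 0.0922) were not called. Fads1 was called lower in 6 of 15 alternative settings, among them the replicate block (adjusted p = 0.0291), median-ratio scaling (0.0399) and the joint fit of all 12 libraries (0.0447), and Fads2 in 2 of 14. Without DKO 6-month replicate 3 both were, with adjusted p of 0.00972 and 0.0139.

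Dbi stood apart among the genes of activation and binding at 6 months, with 908, 952 and 819 FPKM in DKO-labelled libraries, against 167, 176 and 204 FPKM in control libraries (log2 fold change 2.29, SE 0.12, adjusted p = 8.86e-05). At these levels it was the most abundant of the 32 genes in DKO-labelled libraries. Acsl4 had 20.2, 25.6 and 33.1 FPKM in DKO-labelled libraries, against 9.84, 7.08 and 10.1 FPKM in control libraries (log2 fold change 1.44, SE 0.20, adjusted p = 0.00199), and Acsl5 had 161, 225 and 186 FPKM in DKO-labelled libraries, against 108, 98.4 and 109 FPKM in control libraries (log2 fold change 0.84, SE 0.13, adjusted p = 0.00308). Neither pair of groups overlapped. Acsl1 was lower, with 82.2, 79.3 and 68.0 FPKM in DKO-labelled libraries, against 97.2, 101 and 94.9 FPKM in control libraries (log2 fold change -0.35, SE 0.10, adjusted p = 0.0279), a small difference whose call was lost without DKO replicate 3 (adjusted p = 0.0878), control replicate 2 (0.0944) or control replicate 3 (0.0664) and with median-ratio scaling (0.0567). The Acsl1 call was also lost in the joint fit of all 12 libraries (adjusted p = 0.0605) and without the third library of each group (0.192). Acsl3 averaged 6.90 ± 1.49 FPKM in DKO-labelled libraries and 9.16 ± 2.99 FPKM in control libraries and was not called (adjusted p = 0.271).

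The 2 enzymes of the last step parted at 6 months. Dgat1 stayed higher, with 43.7, 39.2 and 34.0 FPKM in DKO-labelled libraries, against 16.0, 16.1 and 21.5 FPKM in control libraries (log2 fold change 1.09, SE 0.15, adjusted p = 0.00175). Dgat2 was lower, with 133, 115 and 102 FPKM in DKO-labelled libraries, against 169.7, 246 and 225 FPKM in control libraries (log2 fold change -0.86, SE 0.17, adjusted p = 0.00627). Dgat2 alone of the 4 genes called lower kept its call in each setting that left out a library. Gpd1 had 20.8, 24.6 and 24.4 FPKM in DKO-labelled libraries, against 4.03, 8.46 and 16.1 FPKM in control libraries (log2 fold change 1.38, SE 0.39, adjusted p = 0.0279). The part of fat cells in this Gpd1 was not tested. The Gpd1 call was lost without DKO replicate 1 (adjusted p = 0.0613), 2 (0.092) or 3 (0.0514) and without control replicate 2 (0.0642). Gpam had 20.4, 20.5 and 17.5 FPKM in DKO-labelled libraries, against 13.8, 13.8 and 14.1 FPKM in control libraries (log2 fold change 0.45, SE 0.10, adjusted p = 0.0107). With library totals taken without keratin and cornified envelope genes, Gpam missed the threshold (adjusted p = 0.0523). The other six genes of assembly, Gpat3, Agpat1, Agpat2, Agpat3, Lpin1 and Lpin2, had log2 fold changes from -0.53 to 0.36 and were not called. Over the list, 13 of 31 tested genes had every DKO-labelled library above every control library and 4 had every one below, beside 31.8% and 24.0% of all tested genes.

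Sebocyte markers, of the cells that fill with sebum, stood well apart at 6 months. Of 17 tested, 13 were called higher and 1 lower, and the sums were 5345 to 6015 FPKM in DKO-labelled libraries and 1032 to 1721 FPKM in control. Without Krt79, a keratin of the gland duct, they were 4291 to 4934 FPKM and 901 to 1539 FPKM. Defb6 made up much of these sums as the highest marker in each library. It had 3848, 3572 and 3180 FPKM in DKO-labelled libraries, against 1028, 563 and 561 FPKM in control libraries. Of 12 keratinocyte markers 1 was called higher and 5 lower at this age, of 15 fibroblast markers 1 was called lower (555 to 1638 FPKM in DKO-labelled and 1008 to 1504 FPKM in control libraries), and of 9 tested macrophage markers 1 was called lower (90.0 to 398 FPKM in DKO-labelled and 87.4 to 147 FPKM in control libraries). Beside these marker counts, 23.2% of all tested genes were called higher at 6 months and 18.2% lower. The part of sebaceous gland cells in the values of the synthesis genes was not tested.

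Whether the genotype effect differed between the ages was tested on all 12 libraries, as the effect at 6 months minus that at P36. Of the 32 genes 3 (Olah among them) were called higher and 8 lower in this difference, beside 13.8% of 13280 tested genes called higher and 21.1% called lower, and the median was -0.36, against -0.08 over all genes. Thrsp had the lowest value (-3.71, SE 1.04, adjusted p = 0.0175). Acsl1 (-1.92, SE 0.20, adjusted p = 9.99e-05) and Dgat2 (-1.91, SE 0.21, adjusted p = 0.000135) followed, with DKO-labelled libraries above control at P36 and below it at 6 months. Srebf1 also changed sides (-1.09, SE 0.17, adjusted p = 0.000858).

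Gpd1 (-1.71, adjusted p = 0.0159), Fasn (-1.12, 0.00613), Acly (-0.84, 0.00565) and Agpat2 (-1.15, 0.027) had a lower genotype effect at 6 months than at P36, that of Agpat2 not called without DKO P36 replicate 1 (adjusted p = 0.0598), control P36 replicate 3 (0.0625) or control 6-month replicate 3 (0.0642). In the other direction were Olah, which passed the filter through the 6-month DKO-labelled libraries alone (2.28, a description), Dbi (2.07, SE 0.15, adjusted p = 1.3e-05) and Elovl7 (1.31, SE 0.20, adjusted p = 0.000709). For Dgat1 the difference was -0.08 (95% interval -0.54 to 0.38), for Acss2 0.03 (-0.45 to 0.51) and for Acsl5 0.13 (-0.27 to 0.52), none of them called. In the same test 9 of 13 fat cell markers and 8 of 14 muscle markers were called lower, beside 21.1% of all tested genes. The part of these cells in the differences of the synthesis genes was not tested.

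**Figure D4:**
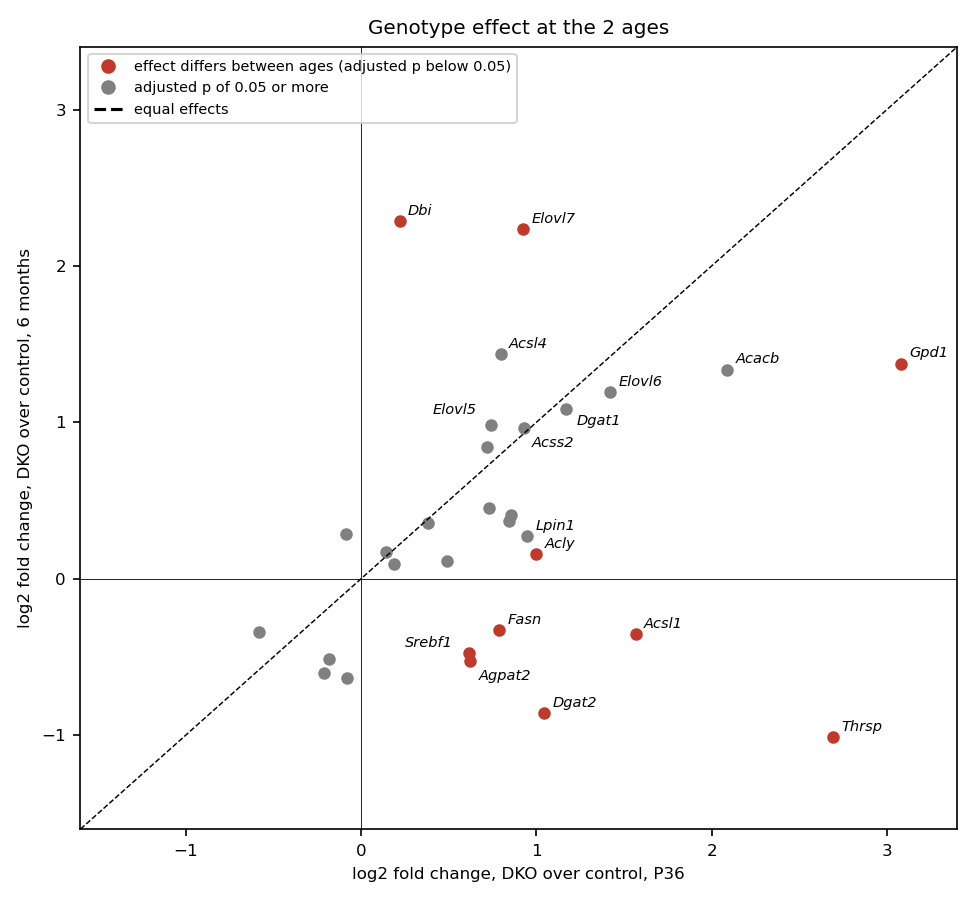
Log2 fold change of FPKM + 1, DKO over control, at P36 (x axis) and at 6 months (y axis) for the 30 genes tested at both ages. Red points had an effect that differed between ages at an adjusted p below 0.05, and the dashed line marks equal effects. Dbi and Elovl7 lie above the line, Thrsp, Acsl1, Dgat2, Fasn, Srebf1 and Agpat2 lie below it and below 0 on the y axis, Gpd1 and Acly lie below it and above 0, and Dgat1 and Acss2 lie on or near it.

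Control libraries differed between the ages as well. Levels at the 2 ages come from separate deposited tables, so that age and table cannot be told apart. Of the 32 genes, 11 (Olah among them) were called higher and 12 lower at 6 months than at P36 in DKO-labelled libraries, beside 28.0% and 32% of all tested genes, and 14 higher and 7 lower in control libraries, beside 35.3% and 27.9%. In DKO-labelled libraries Acsl1 was at 82.2, 79.3 and 68.0 FPKM at 6 months and at 41.6, 40.1 and 51.0 FPKM at P36 (0.78 on the log2 scale, adjusted p = 0.000642). In control libraries it was at 97.2, 101 and 94.9 FPKM at 6 months and at 18.1, 12.4 and 12.6 FPKM at P36 (2.70, adjusted p = 3.69e-08). Dgat2 was not called between the ages in DKO-labelled libraries (0.05, 95% interval -0.28 to 0.38) and was higher at 6 months in control libraries (1.96, adjusted p = 6.05e-07). Dbi was higher at 6 months in DKO-labelled libraries (0.45, adjusted p = 0.00284) and lower in control libraries (-1.62, adjusted p = 1.5e-07).

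Elovl7, by contrast, was called between the ages in DKO-labelled libraries and not in control, by 1.28 (adjusted p = 2.08e-05), against -0.03 in control (adjusted p = 0.864). Olah, tested only because of its level in DKO-labelled libraries at 6 months, differed by 2.27 between the ages in DKO-labelled libraries and by -0.01 in control, as a description. For other genes the age effect was called in both genotypes and its difference between them was not. Elovl6 was higher at 6 months by 1.67 in DKO-labelled libraries and by 1.90 in control, and Me1 by 1.10 and 1.55. Scd2 (-1.51 and -1.12), Fads1 (-1.39 and -0.83), Fads2 (-2.26 and -1.93) and Acsl3 (-1.37 and -1.61) were lower at 6 months in both, with adjusted p of at most 0.0112.

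The rest of the pathway was read from a list of 43 further genes of fatty acid and glycerolipid synthesis. At P36, 13 of 34 tested were called higher and 3 lower (median log2 fold change 0.33), beside 18.0% and 5.32% of all tested genes. At 6 months 15 of 35 were called higher and 6 lower (median 0.38), beside 23.2% and 18.2%. Hsd17b12, the ketoreductase of the elongation cycle, was higher at both ages, at 153 ± 24.4 FPKM in DKO-labelled libraries and 65.8 ± 9.53 FPKM in control libraries at P36 and 344 ± 61.7 FPKM in DKO-labelled libraries and 98.5 ± 7.51 FPKM in control libraries at 6 months (log2 fold change 1.78, adjusted p = 0.00029). Hacd3, the dehydratase of that cycle, averaged 74.5 ± 7.74 FPKM in DKO-labelled libraries and 29.3 ± 1.83 FPKM in control libraries at 6 months (log2 fold change 1.32, adjusted p = 0.000295). Pcx, pyruvate carboxylase, averaged 22.0 ± 4.52 FPKM in DKO-labelled libraries and 6.19 ± 1.80 FPKM in control libraries at P36 (log2 fold change 1.69, adjusted p = 0.0015). Agpat4 was lower at 6 months, at 24.9 ± 1.64 FPKM in DKO-labelled libraries and 75.5 ± 9.65 FPKM in control libraries (log2 fold change -1.56, adjusted p = 0.000227).

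Dgat2l6, an acyltransferase of the Dgat2 family, had 6.55, 10.1 and 15.6 FPKM in DKO-labelled libraries, against 2.00, 0.94 and 1.16 FPKM in control libraries at P36, and 69.7, 55.4 and 63.8 FPKM in DKO-labelled libraries, against 8.02, 4.63 and 10.1 FPKM in control libraries at 6 months (log2 fold change 2.95, adjusted p = 0.000306), where Dgat2 itself was lower. Awat2, a wax ester synthase of the same family, averaged 15.7 ± 1.51 FPKM in DKO-labelled libraries and 2.1 ± 0.29 FPKM in control libraries at P36 (log2 fold change 2.43, adjusted p = 0.000131). Dgat2l6 and Awat2, with Awat1, Elovl3 and Scd3, stand on the sebocyte list too. Scd3 went the other way, with every DKO-labelled library below every control library at both ages. It averaged 2.32 FPKM against 8.33 FPKM in control at P36, and 24.6 FPKM against 105 FPKM at 6 months. Scd1, the main stearoyl-CoA desaturase of sebaceous gland, was looked at after its values were seen, as the relative of Scd2. It had 252, 339.8 and 309.7 FPKM in DKO-labelled libraries, against 121, 125 and 78.9 FPKM in control libraries at P36, which was a rise (log2 fold change 1.49, SE 0.19, adjusted p = 0.00163). At 6 months it had 497, 581 and 464 FPKM in DKO-labelled libraries, against 388, 264 and 491 FPKM in control libraries (adjusted p = 0.13).

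Of 17 genes that control SREBP and LXR signalling, 3 were called higher at P36 (all tested genes: 18.0%), and 3 higher and 6 lower at 6 months (all tested genes: 23.2% and 18.2%). At P36 Nr1h3, which encodes the liver X receptor alpha, an activator of Srebf1, had 4.80, 5.47 and 4.70 FPKM in DKO-labelled libraries, against 1.12, 1.34 and 1.28 FPKM in control libraries (log2 fold change 1.41, SE 0.12, adjusted p = 0.000448). The part of macrophages and fat cells, whose markers were higher in the same libraries, in this Nr1h3 was not tested. Scap, which escorts SREBP to the Golgi, averaged 42.1 ± 6.80 FPKM in DKO-labelled libraries and 27.2 ± 1.30 FPKM in control libraries (log2 fold change 0.6, adjusted p = 0.0115). At 6 months Insig2, which holds SREBP in the endoplasmic reticulum, averaged 93.9 ± 12.4 FPKM in DKO-labelled libraries and 34.1 ± 2.85 FPKM in control libraries (log2 fold change 1.43, adjusted p = 0.0004). Srebf2, the cholesterol counterpart of Srebf1, averaged 32.7 ± 5.31 FPKM in DKO-labelled libraries and 56.0 ± 9.42 FPKM in control libraries (log2 fold change -0.76, adjusted p = 0.00998), and Rxra, the partner of the vitamin D and liver X receptors, averaged 43.9 ± 4.68 FPKM in DKO-labelled libraries and 80.7 ± 2.34 FPKM in control libraries (log2 fold change -0.87, adjusted p = 0.00113).

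In the authors' deposited table, all 32 genes had a q-value at both ages, and at a q below 0.05 the authors' values gave 27 higher and 3 lower at P36 and 21 higher and 11 lower at 6 months. The same cutoff in the authors' deposited table passed 69.9% of all genes with a q at P36 and 80.6% at 6 months, so a pass there separates few genes from the rest.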

How the data were processed

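Total RNA of epidermis was sequenced after removal of ribosomal RNA, per the labels' protocols. The authors deposited 1 table per age with FPKM values per gene and library. The deposited tables also give a log2 ratio, a p-value and a q-value for each gene, per the file headers, and no source here names the test. HISAT2 2.1.0 and RSEM 1.2.8 stand in the submitters' processing notes. Human builds stand there too, so gene numbers were matched to symbols in RefSeq GRCm38.p6 (19343 of 19392 at P36 and 17712 of 17750 at 6 months). The age of a table comes from its name.

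FPKM are not counts, so the planned choice for such values was used: limma 3.58.1 in R 4.3.3 on log2(FPKM + 1), with a variance trend, for genes at 1 FPKM or more in at least 3 libraries of the fit, with Benjamini-Hochberg adjustment over all of them and calls at an adjusted p below 0.05. Fold changes on this scale understate low genes. The 6 libraries of each age were fitted alone, and the difference between ages and the age effects on all 12. The labels do not say that replicates are separate animals, and a p-value here speaks of the spread among these libraries. At most 0.412% of genes had identical values in a pair of libraries.

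All 32 genes are named, and of each other list up to 4 genes with the smallest adjusted p at each age, plus fat cell markers. Scd1, Scd3, Elovl1, Elovl4 and Defb6 were added after their values were seen. Members and lists were chosen with earlier results of these data known. The alternatives were another pseudocount (0.1), no filter or 5 FPKM, 2 other scalings, limma without trend, a joint fit, a replicate block and leaving out each library. Marker lists were summed per library. Promoters were searched in Python 3.11.15.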

Additional observations from a re-analysis of the deposited data

Results flagged for a closer look

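For 11 genes the genotype effect differed between the ages, tested as the effect at 6 months minus that at P36 in log2(FPKM + 1) over 12 libraries (limma adjusted p below 0.05). These were 3 of 32 called higher and 8 called lower, beside 13.8% and 21.1% of all tested genes, shares close to those of the list. Dbi had 2.07 and Elovl7 1.31, a higher effect at 6 months. Olah had 2.28, but it was tested only because its level in DKO-labelled libraries at 6 months passed the filter, so that its value is a description. Thrsp had -3.71, Acsl1 -1.92, Dgat2 -1.91, Gpd1 -1.71, Agpat2 -1.15, Fasn -1.12, Srebf1 -1.09 and Acly -0.84, a lower effect at 6 months. The fat cell markers differed in the lower direction in the same test (9 of 13 called), and their part was not tested. Groups of 3 libraries were not searched for single outlying samples.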

How the results depend on the processing

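No fold change of a called gene of the list changed its sign under any alternative run. Leaving out each library gave 18 to 20 of the 32 genes called higher and 1 to 2 lower at P36, and 1662 to 2660 genes in all; 8 to 14 higher and 1 to 5 lower at 6 months (1 lower without control replicate 2 or 3), and 3682 to 4893 genes in all; and 2 to 3 higher and 7 to 10 lower in the difference between ages. The lowest counts of all genes at P36 came without DKO replicate 2 (1662) and replicate 3 (1697), against 2949. Without the third library of each group at 6 months, 3454 genes were called, against 5207. Median-ratio scaling gave 5 genes of the list higher in the difference between ages, adding Acsl4 and Lpin2. It moved the median log2 fold change of all genes at P36 to -0.028, against 0.092. At 6 months, totals taken without the keratin and cornified envelope genes moved it to -0.119, against 0.045. In the difference between ages the share of called genes that were higher was 54.7% with median-ratio scaling and 28.6% with those totals, against 39.5%. Without a filter, 19 genes of the list were called higher at P36. With the replicate number as a block, 20 genes of the list were called higher and 1 lower at P36 and 12 higher and 6 lower at 6 months, with 2607 and 4862 genes in all. Deviations of same-numbered libraries correlated weakly (r of 0.135, -0.058 and -0.115 at P36 and -0.063, 0.032 and 0.183 at 6 months). Other pairs ran from -0.206 to 0.234, and not every library correlated best with its own number. With 3 libraries a group, these values cannot decide whether the numbers pair libraries. The causes of these shifts were not tested. Depth is unknown, and genes near 1 FPKM, such as Mlxipl and Olah at P36, rest on the filter.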

Other observations

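At each age, part of the genes on a list of lipolysis and fatty acid oxidation were higher. The list is not limited to genes that break down fat themselves. Of 27 tested genes of this list, 11 were called higher at P36 and 10 at 6 months, beside 18.0% and 23.2% of all tested genes. At either age 0 were lower by limma, also at an unadjusted p below 0.05. G0s2 was among the 11, at 13.5 ± 8.40 FPKM in DKO-labelled libraries and 1.22 ± 0.14 FPKM in control libraries (log2 fold change 2.55, adjusted p = 0.00193). Mgll, the lipase of monoacylglycerol, averaged 225 ± 81.0 FPKM in DKO-labelled libraries and 75.8 ± 8.44 FPKM in control libraries at P36 (log2 fold change 1.5, adjusted p = 0.00462) and 330.0 ± 58.4 FPKM in DKO-labelled libraries and 75.9 ± 12.8 FPKM in control libraries at 6 months (log2 fold change 2.1, adjusted p = 0.000295). At P36 Pnpla2, the lipase of the first step, had 49.0, 51.6 and 51.2 FPKM in DKO-labelled libraries, against 26.0, 25.4 and 27.1 FPKM in control libraries (log2 fold change 0.93, SE 0.08, adjusted p = 0.000474). Hadhb, of the mitochondrial trifunctional protein, averaged 96.3 ± 11.5 FPKM in DKO-labelled libraries and 53.7 ± 4.16 FPKM in control libraries at 6 months (log2 fold change 0.83, adjusted p = 0.00192).

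Of 15 tested genes of lipid droplets and fatty acid uptake, 7 were called higher at each age, and 2 were called lower at 6 months. Over all tested genes, 18.0% were called higher at P36, and 23.2% higher and 18.2% lower at 6 months. Plin2, a coat protein of droplets in many cell types, averaged 110.0 ± 17.4 FPKM in DKO-labelled libraries and 49.8 ± 4.99 FPKM in control libraries at P36 and 170.0 ± 23.7 FPKM in DKO-labelled libraries and 53.5 ± 14.3 FPKM in control libraries at 6 months (log2 fold change 1.68, adjusted p = 0.00142). Fabp5, the fatty acid binding protein of keratinocytes, had 1129, 1376 and 1052 FPKM in DKO-labelled libraries, against 245, 258 and 299 FPKM in control libraries at 6 months (log2 fold change 2.14, SE 0.14, adjusted p = 0.000168). Of 25 tested genes of the phospholipid branch, 8 were called higher and 1 lower at P36, and 5 higher and 6 lower at 6 months. The shares over all tested genes were 18.0% and 5.32% at P36 and 23.2% and 18.2% at 6 months, the latter near those of the branch. Lpcat3, an acyltransferase of phospholipid remodelling, averaged 68.8 ± 8.20 FPKM in DKO-labelled libraries and 39.4 ± 3.10 FPKM in control libraries at P36 (log2 fold change 0.79, adjusted p = 0.00244), and Mboat1, of the same process, averaged 3.75 ± 0.62 FPKM in DKO-labelled libraries and 12.3 ± 0.60 FPKM in control libraries at 6 months (log2 fold change -1.5, adjusted p = 0.000387). Pparg, a receptor that controls lipid genes in sebocytes and fat cells, was higher at both ages, with 12.4, 12.1 and 13.8 FPKM in DKO-labelled libraries, against 2.07, 2.59 and 2.47 FPKM in control libraries at P36 (log2 fold change 2.03, adjusted p = 0.000168) and 24.6, 39.1 and 30.1 FPKM in DKO-labelled libraries, against 8.09, 4.82 and 7.74 FPKM in control libraries at 6 months (log2 fold change 2.04, SE 0.22, adjusted p = 0.000857).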
